A study of Rattus norvegicus with 6 samples.

Results

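Elastic fibres and the microfibrils they form on were examined through 10 genes: the elastin gene Eln, the fibrillin gene Fbn1, the fibulin genes Fbln5, Fbln2 and Efemp1, the microfibril-associated genes Mfap4 and Mfap5, the latent TGF-beta binding protein genes Ltbp1 and Ltbp2, and Emilin1. They were chosen by symbol. Each probe set of the rat 230A array that carried the symbol of a member and no other was used, dim ones included, which gave 11 probe sets (2 for Fbn1) among the 15866 of the array. The RNA came from endothelial cells of rat liver, 3 arrays from control Wistar rats and 3 from Wistar rats made cirrhotic. Per the labels, the cirrhotic rats were adult males, and the cells were taken by collagenase digestion, density separation and antibody-coated magnetic beads. The sources used here give neither the age and sex of the controls nor the way cirrhosis was induced, the antibody on the capture beads or the number of rats behind an array. Nothing says that the arrays of a group came from separate rats, so each p-value reflects how far these arrays scatter, which may be technical. Over the 9519 probe sets tested, log2(signal + 16) values of arrays in the same group correlated at 0.912 to 0.967 and those of different groups at 0.821 to 0.874.

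An elastic fibre has a core of crosslinked elastin on a scaffold of fibrillin microfibrils. Fibulins and lysyl oxidases carry elastin monomers to the scaffold and link them, and LTBPs, which bind fibrillin, hold TGF-beta in a latent form in the matrix. In liver, elastic fibres are known mainly from vessel walls, portal tracts and the scars of cirrhosis, and fibroblasts, myofibroblasts and smooth muscle cells are their usual makers. In RNA from many cells, more cells of a type and more RNA per cell cannot be told apart.

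Cells from cirrhotic livers had higher signals of the genes of elastin, fibrillin-1 and 4 of their partners. Eln, Fbn1, Fbln5, Mfap4, Ltbp1 and Ltbp2 rose, and in each of these 6 genes the lowest cirrhotic array lay above the highest control array. On the log2(signal + 16) scale the rises lay between 1.70 and 3.29 for the 5 other than Ltbp2, which was at background in controls. Fbln2 and Emilin1 had differences of -0.00 and -0.27 and did not pass the test, and Efemp1 and Mfap5 were too dim to be tested. In limma's moderated test over 9519 probe sets with Benjamini-Hochberg adjustment, genes counted as higher had an adjusted p under 0.05. Of all 7148 genes tested, each on its brightest probe set, 25.5% were called, 12.7% higher and 12.7% lower. The groups did not overlap, with cirrhotic higher, in 22.0% of them. Counted by probe set, 7 of the 9 tested for members were called higher and did not overlap, where over all probe sets 12.3% were called higher, 13.2% lower and 25.4% either way, and 20.8% did not overlap with cirrhotic higher. Ltbp2 reached the brightness filter only through its cirrhotic signals. Without the filter all 10 members were tested, and 6 were called higher and 0 lower, against 9.25% and 8.03% of 10411 genes. The median difference was then 1.72 over the members and -0.00 over all genes.

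**Figure D1:**
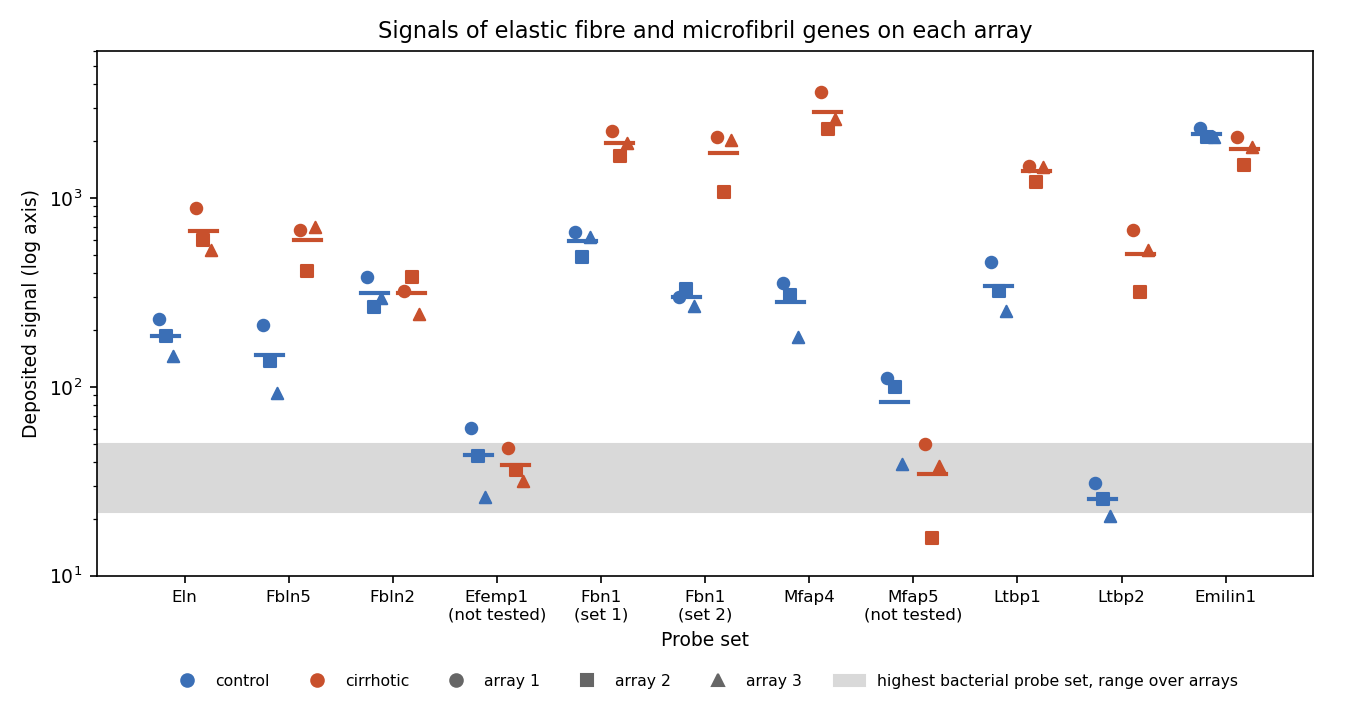
Deposited signal on a log axis for the 11 probe sets of the 10 genes, with a point for each array (shape gives the array number), bars at the group means and a grey band for the highest bacterial control probe set of an array, 21.7 to 49.9. Control and cirrhotic arrays are apart for Eln, Fbln5, both sets of Fbn1, Mfap4, Ltbp1 and Ltbp2, overlap for Fbln2, Emilin1, Efemp1 and Mfap5, and Ltbp2 lies in or just under the band on all 3 control arrays.

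Ltbp2 encodes an LTBP that binds fibrillin microfibrils and, unlike the other LTBPs, does not bind latent TGF-beta. On probe set 1368448_at its signals were 30.8, 25.4 and 20.6 on control arrays 1, 2 and 3 and 673.0, 318.3 and 527.6 on cirrhotic arrays 1, 2 and 3. Every control value lay within the bacterial control probe sets of its array, which have no target in rat RNA. Set against that level, the cirrhotic signal was at least 8.76-fold higher. The test called it higher (adjusted p = 0.000442). The fitted difference, 3.60 with 16 added to each signal, was 2.02 with 126 added and 4.21 with 1 added, so it gives no size for the change.

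Mfap4, a glycoprotein that binds elastin and fibrillin and is made mainly by smooth muscle cells and fibroblasts, read (1371700_at) 352.9, 307.4 and 183.2 on the control arrays and 3624.9, 2313.5 and 2597.0 on the cirrhotic arrays (arrays 1, 2 and 3 of each group, as for every gene that follows). All cirrhotic values were far above all control values, and the lowest was 6.56 times the highest control value. The difference was 3.29 (SE 0.26, 95% interval 2.68 to 3.89, adjusted p = 0.000457). Its mean signal was 281.2 ± 87.8 among controls and 2845 ± 690.0 among cirrhotic arrays (SD, n = 3).

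Ltbp1 (1367912_at), which ties latent TGF-beta to microfibrils, read 459.2, 319.4 and 251.2 in control and 1473.1, 1213.8 and 1460.3 in cirrhotic arrays. The cirrhotic arrays lay close together, within 1.21-fold of each other, and the control arrays within 1.83-fold. The difference was 2.00 (SE 0.22, adjusted p = 0.000937), from a mean of 343.3 ± 106.0 to 1382 ± 146.2 (SD, n = 3).

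Fbn1 encodes fibrillin-1, the main subunit of microfibrils, and had 2 probe sets. On the brighter, 1368829_at, the control signals were 657.4, 486.2 and 623.1 and the cirrhotic signals 2245.7, 1654.3 and 1953.1. The other, 1387351_at, read 297.4, 327.4 and 266.1 in control and 2088.5, 1073.9 and 2016.8 in cirrhotic arrays. The groups were apart on both, with cirrhotic array 2 the lowest of its group each time. The differences were 1.70 (SE 0.17, adjusted p = 0.00079) and 2.42 (SE 0.25, adjusted p = 0.000878). The second set changed by 0.72 more, with array values that overlapped between the groups (two-sided exact permutation p = 0.2, where 3 against 3 arrays cannot go below 0.1), so these arrays do not settle whether the sets differ.

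Fbln5 encodes fibulin-5, which brings elastin and lysyl oxidase-like 1 to the microfibril. On probe set 1367866_at it read 211.1, 136.7 and 92.6 on control and 678.9, 409.3 and 698.6 on cirrhotic arrays. Among the 6 genes that rose it had the narrowest gap between groups, since its lowest cirrhotic value was 1.94 times its highest control value. The difference was 1.94 (SE 0.30, 95% interval 1.24 to 2.64, adjusted p = 0.00375). Eln (1388111_at), the elastin gene itself, read 229.6, 184.6 and 145.4 on control and 885.2, 596.4 and 526.6 on cirrhotic arrays. It differed by 1.74 (SE 0.23, 95% interval 1.21 to 2.28, adjusted p = 0.00194), from a mean of 186.5 ± 42.1 to 669.4 ± 190.1 (SD, n = 3). Each of these 6 genes stayed past the threshold with any 1 array left out, with adjusted p-values of at most 0.0223.

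The other 4 members did not pass the test or were too dim for it. Fbln2 (1389533_at), a fibulin of basement membranes and elastic fibres, read 380.3, 265.2 and 296.1 in control and 322.5, 381.3 and 242.3 in cirrhotic arrays. The groups overlapped throughout, and the 95% interval of the difference, -0.47 to 0.47, leaves room for a change of either direction up to that size (adjusted p = 0.998). Emilin1 (1372325_at), a microfibril glycoprotein that anchors cells to elastic fibres and restrains TGF-beta maturation, was bright in both groups, with 2342.8, 2086.2 and 2093.7 in control and 2092.2, 1483.8 and 1858.7 in cirrhotic arrays. Cirrhotic array 1 read 2092.2, within the control range, and the difference of -0.27 did not pass (SE 0.15, 95% interval -0.62 to 0.07, adjusted p = 0.211).

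Efemp1 (fibulin-3, 1390112_at), a fibulin abundant in connective tissue, had signals from 26 to 60.8 in control and from 31.7 to 47.2 in cirrhotic arrays, near the bacterial control probe sets, and the ranges overlapped. Mfap5 (MAGP-2, 1373674_at), a small protein bound to fibrillin, read 110.6, 99.6 and 39.0 in control and 49.7, 15.8 and 38.1 in cirrhotic arrays. Control arrays 1 and 2 were the brightest of the 6, but control array 3 lay among the cirrhotic values. With the filter on dim probe sets lifted, Mfap5 had a difference of -0.94 (adjusted p = 0.154) and Efemp1 of -0.09 (adjusted p = 0.848), and neither passed.

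The windows upstream of the start are shown for the 4 genes that rose and had a RefSeq promoter sequence, and for Fbln2, which did not pass, so that members with different changes can be compared. Promoter sequences of 7 members were matched in RefSeq's GRCr8 table (Ltbp2, Ltbp1, Fbln5, Fbn1, Fbln2, Efemp1 and Mfap5). Each line gives the 250 bases before the annotated start, 5′ to 3′, and capitals mark CAGAC, the short site of SMAD proteins, which carry TGF-beta signals, and GGGCGG, the letters of the Sp1 box, on either strand.
Ltbp2 (chr6:110257299-110257548, minus strand): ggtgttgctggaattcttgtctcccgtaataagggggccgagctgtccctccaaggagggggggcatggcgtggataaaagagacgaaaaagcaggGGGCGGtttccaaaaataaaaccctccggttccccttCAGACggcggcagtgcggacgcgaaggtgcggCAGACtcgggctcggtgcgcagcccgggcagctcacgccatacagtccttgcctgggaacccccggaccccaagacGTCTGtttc
Ltbp1 (chr6:26177302-26177551, minus strand): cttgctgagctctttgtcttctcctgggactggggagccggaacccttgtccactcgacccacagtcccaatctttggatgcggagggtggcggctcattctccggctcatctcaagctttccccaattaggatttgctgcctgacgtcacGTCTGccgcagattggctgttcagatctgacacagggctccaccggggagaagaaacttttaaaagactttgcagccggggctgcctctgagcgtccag
Fbln5 (chr6:126742707-126742956, minus strand): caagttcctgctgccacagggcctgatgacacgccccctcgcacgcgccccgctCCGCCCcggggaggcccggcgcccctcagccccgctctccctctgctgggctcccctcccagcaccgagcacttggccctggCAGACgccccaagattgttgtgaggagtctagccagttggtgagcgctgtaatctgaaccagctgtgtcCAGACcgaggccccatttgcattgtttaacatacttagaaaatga
Fbn1 (chr3:133203391-133203640, minus strand): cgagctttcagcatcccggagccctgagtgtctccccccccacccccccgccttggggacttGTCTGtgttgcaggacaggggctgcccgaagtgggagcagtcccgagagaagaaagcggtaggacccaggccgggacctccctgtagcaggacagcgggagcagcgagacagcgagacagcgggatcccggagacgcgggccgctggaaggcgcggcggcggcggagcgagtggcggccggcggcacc
Fbln2 (chr4:125261409-125261658, plus strand): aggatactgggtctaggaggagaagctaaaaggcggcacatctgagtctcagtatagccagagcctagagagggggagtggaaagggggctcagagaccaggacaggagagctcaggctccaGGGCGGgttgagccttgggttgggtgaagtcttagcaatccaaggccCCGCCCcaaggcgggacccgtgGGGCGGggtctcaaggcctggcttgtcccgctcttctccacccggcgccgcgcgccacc

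Of the 7 windows, 5 held CAGAC (Fbn1, Ltbp1, Ltbp2, Fbln5 and Efemp1), a run of letters found in 42.9% of the 33469 windows of this length. Ltbp2 held it at 3 places and Fbln5 at 2, but Efemp1, which was too dim to be tested, held it at 4. GGGCGG was in 4 of the 7 (Fbln2, Ltbp2, Fbln5 and Efemp1) and in 30.5% of all windows, and the Fbln2 window held it 3 times. The TATA box letters TATAAA, the AP-1 letters TGAGTCA, the TEAD letters GGAATG and the SMAD palindrome GTCTAGAC were in 0 of the 7, against 12.9%, 4.05%, 12.1% and 0.173% of all windows. None of these 6 motifs contains another. The windows had between 51.6% and 71.2% G and C, where the median of all windows was 51.2%. RefSeq's gene models begin further upstream than these starts by 4288 bases for Ltbp2 and 887 bases for Fbn1, and by between 45 and 195 bases for Ltbp1, Fbln5 and Fbln2. A match of letters describes the window and shows no binding.

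Within each group the arrays kept nearly the same order across the genes that rose. Of their 7 probe sets, cirrhotic array 1 was the highest of its group in 6 and cirrhotic array 2 the lowest in 6. Among controls, array 1 was the highest in 6 and array 3 the lowest in 6. Over the 1167 probe sets called higher on the whole array, cirrhotic array 2 was the lowest of its group in 36.6% and cirrhotic array 3 in 49.7%, and control array 3 was the lowest in 48.7%. The median distance of cirrhotic array 1 from the mean of the other cirrhotic arrays was 0.50 on the log2 scale over the 7 probe sets and 0.13 over the 1167. For cirrhotic array 2 the same medians were -0.40 and -0.00. These are descriptions of 3 arrays per group, without a test.

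Changes were also compared between relatives of the same family, in pairs chosen after their values were seen. Among fibulins, Fbln5 (1.94) and Fbln1 (1.32, SE 0.32, adjusted p = 0.0204) rose. Fbln1 no longer passed when control array 3 (adjusted p = 0.0639) or cirrhotic array 1 (0.0776) was left out. Its control mean lay under the brightness filter, which it reached only through its cirrhotic signals. Fbln5 changed by 1.94 more than Fbln2 and by 0.62 more than Fbln1, and the arrays of the groups did not overlap in either comparison. Among LTBPs, which differ in their ability to bind latent TGF-beta, Ltbp4 rose by 0.83 (SE 0.16, adjusted p = 0.00898) and Ltbp3 by 0.78 (SE 0.20, adjusted p = 0.0261). Ltbp3 no longer passed when array 1 or 3 of either group was left out (adjusted p from 0.0514 to 0.0973). Ltbp1 changed by 1.17 more than Ltbp4 and by 1.22 more than Ltbp3. Comparisons with Ltbp2 are given no size, since its controls were at background. Over the 10 comparisons of this kind, 8 reached a two-sided exact permutation p of 0.1, the smallest that 3 against 3 arrays allow, with an adjusted p of 0.125, so none could pass. Ltbp4 and Ltbp3 differed in their change by 0.05 (exact permutation p = 0.9).

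The other genes of the pathway were read by the roles they have around the fibre. Of 10 tested further components of elastic fibres and microfibrils, 7 rose and 1 fell (median 0.83), but leaving out control array 3, or cirrhotic array 1, gave counts of 4 and 1. Fn1 (fibronectin, on which fibrillin assembles) rose by 2.33 (SE 0.32, adjusted p = 0.00243), and the small proteoglycan gene Dcn rose by 2.00 (SE 0.22, adjusted p = 0.000941). The multimerins Mmrn1 and Mmrn2, which share a family with Emilin1, went in opposite directions: Mmrn1 rose by 3.64 (SE 0.32, adjusted p = 0.000531) and Mmrn2, a protein of endothelial cells, fell by 1.33 (SE 0.12, adjusted p = 0.000572). Mmrn1 reached the brightness filter only through its cirrhotic signals. Mfap2 (MAGP-1, the near relative of Mfap5) had a difference of 0.69 (adjusted p = 0.0501) and did not pass. Fbn2, the fibrillin of early development, was too dim to be tested, with means of 34.0 in control and 46.0 in cirrhotic arrays.

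Enzymes that crosslink and assemble the fibre were higher or did not pass. Of 7 tested, 5 rose and 0 fell (median 1.64). With no filter, or with any 1 array other than cirrhotic array 2 left out, 4 rose. Lox, the lysyl oxidase that crosslinks elastin and collagen, read 104.4, 78.7 and 56.7 in control and 2140.7, 1195.5 and 1339.1 in cirrhotic arrays, a difference of 4.02 (SE 0.26, adjusted p = 0.000361). Loxl1, the lysyl oxidase that binds fibulin-5, read 13.6 and 10.8 on control arrays 2 and 3, lay higher but under every cirrhotic value on control array 1, and read 1589.2, 869.1 and 930.8 on the cirrhotic arrays. Its difference of 4.88 (SE 0.38, adjusted p = 0.000442) depends in size on the added 16, since the controls were dim. Lox and Loxl1 had control means under the brightness filter, and reached it only through their cirrhotic signals. Pcolce, an enhancer of the protease BMP1, and the collagen and tropoelastin chaperone Fkbp10 rose by 2.69 (SE 0.51, adjusted p = 0.00787) and 1.64 (SE 0.22, adjusted p = 0.00199). Cirrhotic array 1 was the brightest and cirrhotic array 2 the dimmest of its group for Lox, as for most members that rose.

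Proteases that cut elastin, with their inhibitors, were mixed. Of 9 tested, 4 rose and 1 fell, and 3 rose and 2 fell without cirrhotic array 2. Their median difference was 0.71, but 0.46 with probe sets of shared sequence left out and 0.10 over 11 genes with no filter. Mmp12, the macrophage elastase, rose by 1.71 (SE 0.33, adjusted p = 0.00866) and the inhibitor gene Timp2 by 1.77 (SE 0.24, adjusted p = 0.00228). Mmp2, a gelatinase that also cuts elastin, rose by 2.48 (SE 0.22, adjusted p = 0.000518) on its brighter probe set, whereas its other probe set had -0.11 (adjusted p = 0.796). The lysosomal protease gene Ctsl fell by 0.59 (SE 0.08, adjusted p = 0.00194) on its brighter probe set. Its other probe set had -1.35 (adjusted p = 0.000782).

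In the list of latent TGF-beta and its activation, 2 of 7 tested genes rose and 1 fell (median 0.30, and 0.49 without control array 3), and 3 rose without cirrhotic array 3. The ligand Tgfb3 rose by 1.88 (SE 0.20, adjusted p = 0.000848) and the integrin chain Itgb5, which with an alpha v chain binds latent TGF-beta, rose by 0.94 (SE 0.17, adjusted p = 0.00617). Tgfbr3 (betaglycan, a co-receptor) fell by 1.25 (SE 0.25, adjusted p = 0.0101) on its brighter probe set. Its other probe set had -0.88 (adjusted p = 0.0567) and did not pass. The ligand Tgfb1 had a difference of 0.06 (95% interval -0.54 to 0.66, adjusted p = 0.895), and the receptor Tgfbr1 of 0.61 (adjusted p = 0.0538, and 0.012 without cirrhotic array 3). Of the 3 chains of the elastin receptor complex, Neu1 fell by 0.91 (SE 0.20, adjusted p = 0.0154) and Ctsa by 0.41 (SE 0.12, adjusted p = 0.0397), and Glb1, which encodes beta-galactosidase and its elastin-binding splice form, had -0.09 (adjusted p = 0.665). Leaving out any 1 array ended the call of Ctsa (adjusted p from 0.0543 to 0.131), and leaving out control array 3 ended that of Neu1 (0.0544). Over all tested genes the median difference was -0.00.

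**Figure D2:**
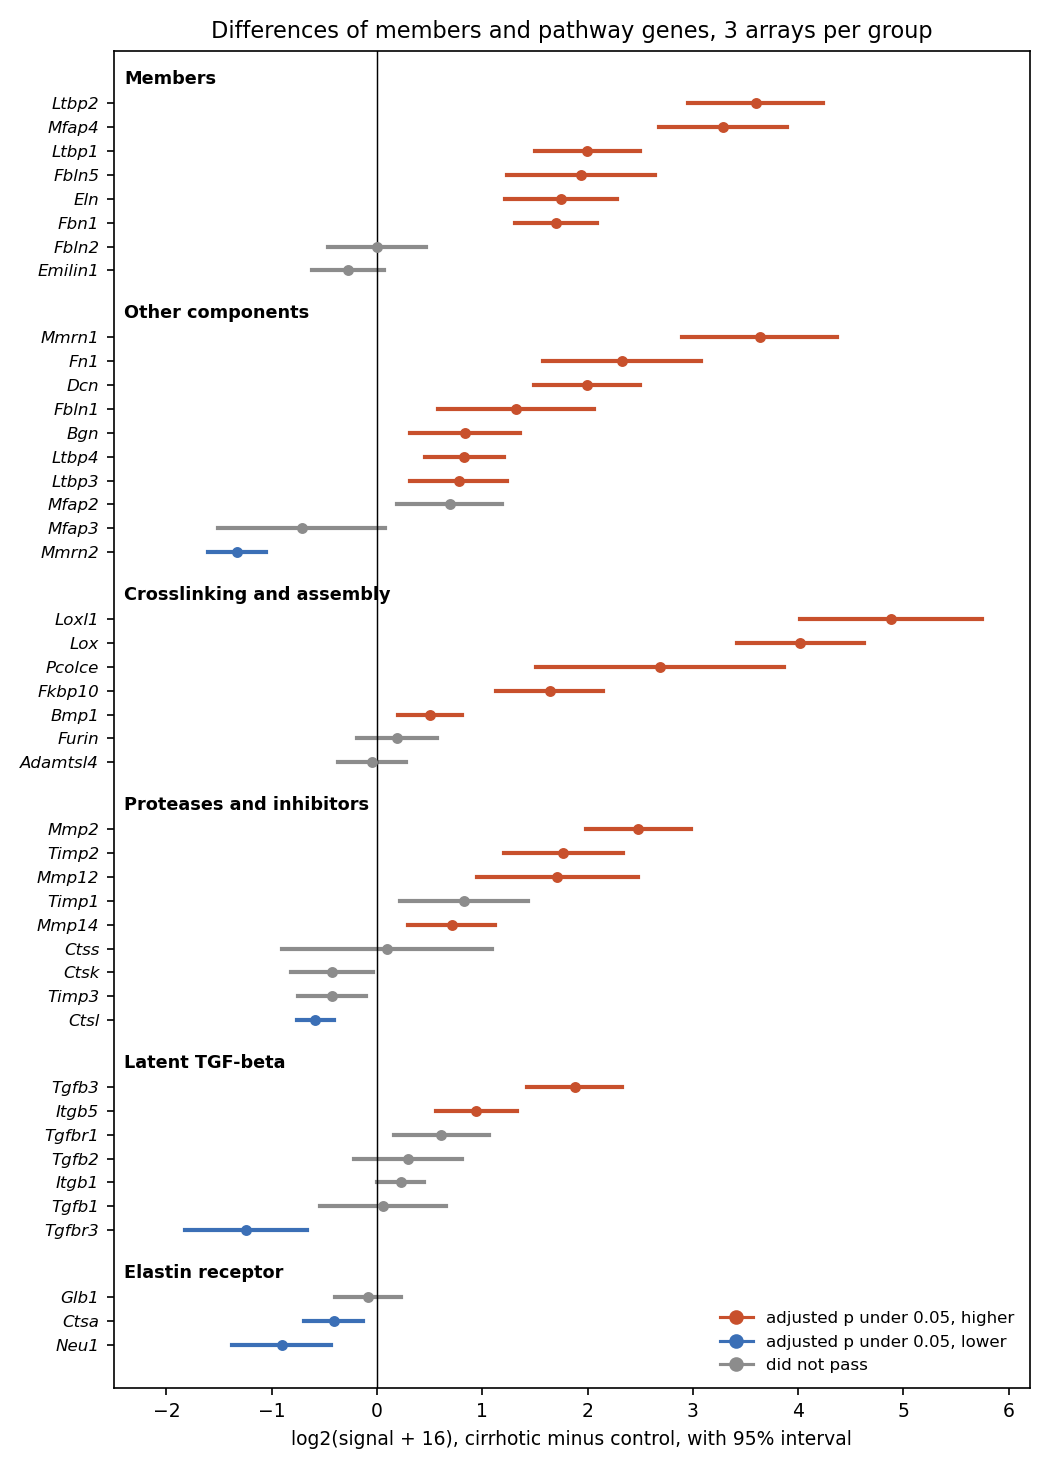
Difference between cirrhotic and control arrays in log2(signal + 16), with its 95% interval, for the 8 tested members and the tested genes of 5 pathway lists, each on its brightest tested probe set. Mfap4 lies at 3.29 and Lox at 4.02. The places of Ltbp2 (3.60) and Loxl1 (4.88) depend on the added 16: with 126 added, Ltbp2 (2.02) lies below Mfap4 (2.87) and a probe set of Fbn1 (2.08). Fbln2 and Emilin1 have intervals that include 0.

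The array profiles of the 8 tested members, Fbln2 and Emilin1 included, were averaged. The genes nearest to that average were found by the root mean square distance over the 6 arrays, on log2 values taken from each gene's own control mean. Of 7140 other genes, the nearest were Timp2 (distance 0.12), Tgfb3 (0.13), Olfml2b (0.14), Mmp23 (0.15) and Htra3 (0.15), with differences between 1.62 and 1.92. Mmp23 reached the brightness filter only through its cirrhotic signals. Tgfb3 read 184.2, 176.8 and 124.2 on control and 751.8, 519.3 and 635.5 on cirrhotic arrays, in the same order within each group as Mfap4. The 6 arrays fall into the 2 groups, so the distance mostly reflects the size of the difference.

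The arrays of both groups carried endothelial transcripts, as labelled, and those of other liver cells. All 7 tested sinusoidal endothelial markers and 11 of 12 pan-endothelial markers fell, and their summed signals went from between 33175 and 37298 to between 14260 and 16652, and from between 41825 and 42768 to between 21308 and 22989. Leaving out control array 1 or cirrhotic array 3 added 1 pan-endothelial gene that was higher. Pecam1, the endothelial junction molecule, had a mean of 1781 ± 144.0 in the control group and 766.9 ± 124.8 in the cirrhotic group (SD, n = 3). Alb, the hepatocyte albumin gene, read 11075 ± 577.3 and 12728 ± 1255 and did not pass (difference 0.197, adjusted p = 0.142). Of the 9 tested hepatocyte markers, however, 4 rose and 0 fell. The smallest p-values were those of Apoa1, which rose by 2.59 (SE 0.43, adjusted p = 0.00474), and Ahsg, which also rose (adjusted p = 0.0068).

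Some markers of cells that make elastic fibres rose with the members. Too dim to be tested were 3 stellate cell, 3 portal fibroblast and 6 smooth muscle markers. Of 8 tested stellate cell and pericyte markers 4 rose and 1 fell, led by Pdgfrb (2.68, SE 0.29, adjusted p = 0.000995) and the pericyte regulator Rgs5 (2.87, SE 0.36, adjusted p = 0.00164), while the retinol enzyme gene Lrat of stellate cells had 0.35 (adjusted p = 0.461, and 0.0492 without cirrhotic array 2). Pdgfrb and Rgs5 had control means under the brightness filter, and reached it only through their cirrhotic signals. The 1 that fell was Ecm1, with a difference of -1.24 (adjusted p = 0.00512, and at most 0.0288 with any 1 array left out). Of the 8, 3 rose without control array 2 or 3 or cirrhotic array 1 or 3, and 5 without cirrhotic array 2. The count was also 3 with quantile normalization or median centring. The summed signal of the 11 genes of that list lay between 6139 and 7828 in control and between 6556 and 8921 in cirrhotic arrays. Ngfr was within the bacterial control probe sets on all arrays. Of 4 tested portal fibroblast markers 2 rose, Entpd2 (1.61, SE 0.19, adjusted p = 0.0014) and the matrix protein gene Dpt (1.67, SE 0.28, adjusted p = 0.00512). Entpd2 also reached the brightness filter only through its cirrhotic signals. Col15a1, another marker of portal fibroblasts, had a difference of -0.01 (adjusted p = 0.971). Summed over 7 genes, the portal fibroblast signal was 1457, 1212 and 1187 on control arrays 1, 2 and 3 and 4458, 2517 and 2795 on cirrhotic arrays 1, 2 and 3. This sum was highest on array 1 of each group and lowest on control array 3 and cirrhotic array 2, as was Mfap4. The stellate cell sum had the order of Mfap4 over the cirrhotic arrays, but among controls it was highest on array 3. The smooth muscle sum was also highest on array 1 of each group, but lowest on control array 2 and cirrhotic array 3. Of the other members that rose, Ltbp1 and Ltbp2 had the order of Mfap4. Eln was lowest on cirrhotic array 3, Fbln5 was highest there, and neither Fbn1 probe set had that order. Over the 1167 probe sets called higher, array 1 was also most often the highest, in 42.6% among controls and 41% among cirrhotic arrays. These orders describe 3 arrays per group and were not tested.

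Of 5 tested smooth muscle and myofibroblast markers 3 rose and 1 fell, with sums from 4642 to 6220 in control and from 7544 to 9698 in cirrhotic arrays over 11 genes. Tagln (transgelin), an actin-binding protein of smooth muscle, read 294.0, 61.8 and 6.2 in control and 2934.9, 1835.2 and 1654.0 in cirrhotic arrays. The groups did not overlap, but the controls spanned 47.4-fold, and the difference was 4.69 (SE 0.81, 95% interval 2.81 to 6.56, adjusted p = 0.00572). The control mean of Tagln lay under the brightness filter, which it reached only through its cirrhotic signals. Control array 3, at 6.2, lay under the brightest bacterial control probe set of its array. The size of the difference therefore depends on the constant added to each signal. Tpm1 rose by 2.12 (SE 0.16, adjusted p = 0.000442) and Smtn fell by 1.91 (SE 0.15, adjusted p = 0.000457). Acta2, the defining actin of myofibroblasts, was too dim to be tested and read 17.6 ± 3.12 among controls and 62.3 ± 31.1 among cirrhotic arrays (SD, n = 3). Mesothelial markers had 1 of 3 tested genes higher, Pdpn (1.77, SE 0.28, adjusted p = 0.00375), and 2 without cirrhotic array 3. The control mean of Pdpn also lay under the brightness filter. Cholangiocyte markers had 7 of 8 higher, with sums from 771 to 1540 in control and from 5241 to 13475 in cirrhotic arrays, lowest on cirrhotic array 3 within that group. The count was 8 without cirrhotic array 3, and 6 with any 1 other array left out. Up to 3 of the 9 genes of this list lay at or under the brightest bacterial control probe set on a control array. Hepatocyte markers had 4 of 9 higher, and 2 when control array 2 or 3 or cirrhotic array 1 was left out. Leaving out cirrhotic array 2 gave 6, and leaving out cirrhotic array 3 gave 3. Macrophage markers had 2 of 7 higher and 1 lower, and 1 higher without control array 3. Without cirrhotic array 3 the same 6 members were called, with differences from 1.70 to 3.34 for those other than Ltbp2. The cirrhotic arrays that remain had the higher cholangiocyte sums, so leaving out array 3 cannot show what part those cells had. The part of these cell types in the members' differences was not tested.

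**Figure D3:**
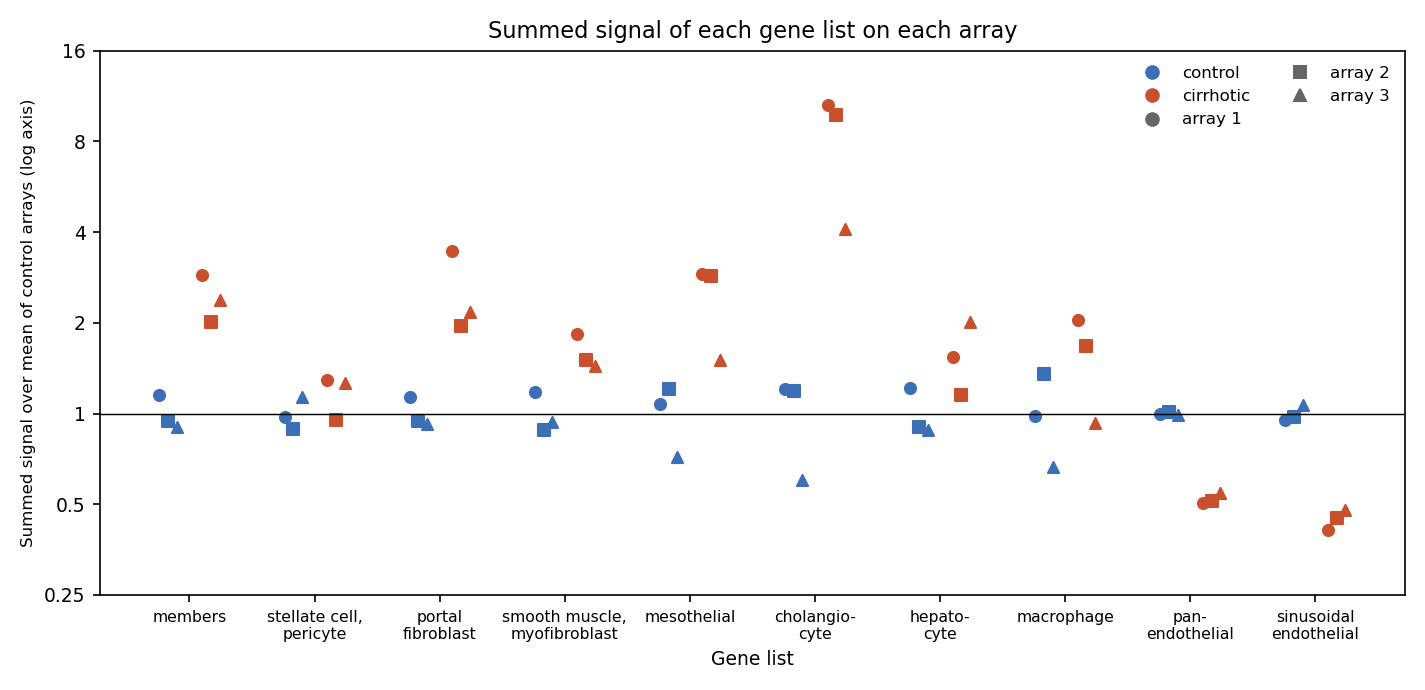
Signal summed over the genes of each list on each array, divided by the mean of the 3 control arrays, on a log axis. The sums of members and of stellate cell, portal fibroblast, smooth muscle, mesothelial, cholangiocyte and macrophage markers are highest on cirrhotic array 1. Those of smooth muscle, mesothelial, cholangiocyte and macrophage markers are lowest of the cirrhotic arrays on array 3. Both endothelial lists are lower on every cirrhotic array than on any control array.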

How the data were processed

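RNA of liver endothelial cells was hybridised to 6 Affymetrix rat 230A arrays, 3 control and 3 cirrhotic, grouped by sample title. A control title carries no number, and that array is named control 1 here. Deposited values are intensity, 1 linear signal per probe set and array. The mean of each array, with 2% of values trimmed at each end, lay between 399.2 and 399.6. The scale of the values was therefore kept as deposited. The software is not given in the sources used here. There were 0 unused columns of values. No 2 arrays shared more than 47 identical values.

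Values became log2(signal + 16), 16 being the 10th percentile. The 57 control probe sets and the dimmest 40% by the mean over all arrays (a signal under about 127) were left out, which kept 9519. A gene dim in controls could pass this filter through its cirrhotic signals alone. The test was limma's (version 3.58.1, R 4.3.3: lmFit, eBayes with a variance trend, two-sided, Benjamini-Hochberg, threshold 0.05). Arrays this few limit the precision. Simulated data had 200 of 9519 probe sets changed, a smaller share than was called here, and noise drawn independently for each value. There the fit recovered 61.0% of 2-fold and 92.2% of 4-fold changes, and 4.52% of its calls were false. These rates need not hold for the real arrays.

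The platform annotation gave 1 symbol to 12783 probe sets, several to 312 and none to 2771. Lists used 1 probe set per gene, the brightest. An at-least fold puts the dim group at the brightest bacterial control probe set (of 27) of each array. Members were always named, with up to 4 genes per pathway list and 2 per cell type list by p, and relatives of members and some defining markers were added after their values were seen. The members and lists were chosen with earlier results of these data known. Alternatives were other normalizations, pseudocounts, filters and variance models, dropping probe sets of shared sequence, blocking on the array number, and leaving out each array in turn. Promoter sequences are from RefSeq's GRCr8 table, and no positions of probe sets are reported.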

Additional observations from a re-analysis of the deposited data

How the results depend on the processing

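The 6 member genes called higher were called under all alternatives run, except that Ltbp2 was not tested with a pseudocount of 1 or a filter at 60%, where 5 were called. Their differences ranged most for Ltbp2, from 2.02 with a pseudocount at the 40th percentile (126), where it lay below Mfap4 (2.87) and a probe set of Fbn1 (2.08), to 4.21 with a pseudocount of 1. Emilin1 and Fbln2 passed under none. The sign of Fbln2 turned with the pseudocount at the 40th percentile (0.0011) and when arrays were left out (from -0.14 to 0.17). Over all probe sets, 2421 were called, 3772 with array weights and between 1341 and 2472 with 1 array left out. Array numbers were used as a block only for numbers 2 and 3, which titles of both groups carry: the replicate block called 908 probe sets and the same 4 arrays without it, a setting chosen after seeing the data, 596, with 6 members called and a difference of 0.11 for Fbln2 in both. Deviations of same-numbered arrays correlated at -0.01 and -0.16, so the samples may share only a number. Median centring moved the share of calls that were higher from 48.2% to 38.5%. Dim signal limits Efemp1, Mfap5 and the controls of Ltbp2.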
